A study of Mus musculus with 30 samples.

Results

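The insulin-like growth factor (IGF) genes described here are the 2 ligands, Igf1 and Igf2, their receptors, Igf1r and Igf2r, and 6 genes of IGF binding proteins, Igfbp2 to Igfbp7. They were taken by symbol from the count tables, and all 10 symbols were found among the 26264 listed genes. The RNA came from the tibialis anterior, a shin muscle that lifts the foot, of mice with volumetric muscle loss, in which a piece of muscle is removed. The groups were male and female muscle at day 4, day 7, day 11 and day 15 after the injury, and uninjured male and female muscle, each with 3 libraries, so 6 libraries per time and 30 in all. The labels give no strain, age, genotype or further treatment. They do not say whether the libraries came from separate animals, so the p-values reflect only the spread between these libraries, which may be technical.

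IGF-1 and IGF-2 are secreted hormones that act on the same cells that make them and on their neighbours. Both bind the IGF-1 receptor, a tyrosine kinase that signals through insulin receptor substrates to PI3K, Akt and mTOR, and in skeletal muscle this route is known for driving myoblast proliferation, differentiation and fibre growth. The IGF-2 receptor does not signal in this way: it takes IGF-2 into the cell for degradation and carries lysosomal enzymes. The binding proteins hold IGFs in tissue fluid and plasma, and depending on the protein and on its cleavage by proteases they withhold the ligand or release it.

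Sequences upstream of 4 of the genes are shown as examples. They are Igfbp2, near absent from uninjured muscle, the ligand Igf2, the binding protein Igfbp4 and the receptor Igf1r. Igf1r was not called against uninjured muscle at any day over both sexes with TMM factors. Igf1, whose log2 fold change at day 11 was larger than that of Igf2 or Igfbp4, is not among those shown. Each is the stretch of 250 bases before a transcription start in RefSeq (build GRCm38.p6), read 5′ to 3′ on the strand of the gene. Capitals mark letters searched on both strands: the GC box GGGCGG, the TATA box TATAAA and the CCAAT box CCAAT. The stretches are chr1:72824230-72824479 on the plus strand for Igfbp2, chr7:142657497-142657746 on the minus strand for Igf2, chr11:99040994-99041243 on the plus strand for Igfbp4 and chr7:67952007-67952256 on the plus strand for Igf1r.
Igfbp2: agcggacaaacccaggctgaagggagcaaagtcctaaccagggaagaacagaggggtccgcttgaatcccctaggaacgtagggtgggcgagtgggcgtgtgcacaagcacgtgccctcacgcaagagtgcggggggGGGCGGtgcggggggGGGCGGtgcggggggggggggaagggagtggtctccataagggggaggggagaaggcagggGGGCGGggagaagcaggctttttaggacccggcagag
Igf2: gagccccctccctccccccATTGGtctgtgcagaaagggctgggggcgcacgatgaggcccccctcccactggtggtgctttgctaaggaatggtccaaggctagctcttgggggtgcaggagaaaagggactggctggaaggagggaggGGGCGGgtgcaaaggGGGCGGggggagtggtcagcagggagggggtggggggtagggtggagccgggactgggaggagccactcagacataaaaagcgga
Igfbp4: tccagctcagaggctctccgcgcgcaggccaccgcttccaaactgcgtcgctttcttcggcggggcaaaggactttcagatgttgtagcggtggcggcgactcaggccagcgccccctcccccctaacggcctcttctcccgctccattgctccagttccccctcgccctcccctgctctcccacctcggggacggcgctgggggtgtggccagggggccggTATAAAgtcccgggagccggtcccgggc
Igf1r: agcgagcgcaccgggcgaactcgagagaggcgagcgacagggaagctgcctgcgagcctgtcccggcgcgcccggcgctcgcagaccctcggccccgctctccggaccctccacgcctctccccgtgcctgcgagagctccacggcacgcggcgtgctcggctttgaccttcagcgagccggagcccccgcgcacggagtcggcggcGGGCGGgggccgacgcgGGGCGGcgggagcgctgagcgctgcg
The Igfbp2 stretch held 3 GC boxes, those of Igf2 and Igf1r held 2 each, and that of Igf2 also held 1 CCAAT box on the opposite strand. Igfbp4 had a TATA box that begins 28 bases before the start and no GC box. Among 32851 such stretches of all genes, 32.7% held the GC box, 33.8% the CCAAT box and 12.4% the TATA box. The letters CAGCTG (an E-box) and TGANTCA (an AP-1 site) were in none of the 4 stretches, against 13% and 6.75% of all stretches. This depends on the genes shown. The Igf1 stretch, not shown, holds 1 E-box, 1 AP-1 site and 1 CCAAT box, at 157, 37 and 142 bases before its start. RefSeq gives 1 other start for Igfbp2 and 3 others for Igf2, and the stretches shown are those with more of the searched letters. The other Igfbp2 stretch holds an AP-1 site 39 bases before its start. The stretches held 67.2%, 66%, 69.2% and 77.6% G and C for Igfbp2, Igf2, Igfbp4 and Igf1r, against a median of 52.4% over all.

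Total counts per library were 13089999 to 57277336. All 10 genes were among the 17136 that had enough counts to be tested, Igfbp2 only through the injured groups. Levels are CPM, the count scaled to a common library size, here the library size multiplied by TMM factors, which averaged 1.30 at day 4 and 0.527 in uninjured muscle, where a few fibre genes take a large share of the counts. With these factors the median log2 fold change over all tested genes was 0.17, 0.24, 0.32 and 0.26 at days 4, 7, 11 and 15. With library size alone the same medians were 1.47, 1.42, 1.46 and 1.30, and the genes called higher and lower at day 4 were 12601 and 1482 in place of 6864 and 5662. Summed over 8 markers of mature fast fibres, day 4 libraries held 7010 to 43261 CPM and uninjured ones 223480 to 325583 CPM. Of the 15 libraries labelled female, 1 did not show the Xist level of the others, and day 11 values are given with and without this library, female day 11 replicate 3.

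Against uninjured muscle, 7 of the 10 genes were called higher and 0 lower at each of the 4 days, at an adjusted p under 0.05 in edgeR's quasi-likelihood test. Igfbp2 entered the test only through the groups where it is high, and of the other 9 genes 6 were called. This is not far from the background, since 73.1%, 71.5%, 72.4% and 69% of all tested genes were called in either direction at days 4, 7, 11 and 15, and 40.1%, 41.6%, 42.7% and 39.7% were called higher. The median log2 fold change of the 10 genes was 1.06, 0.97, 1.35 and 1.65, against the medians of all genes given above. Without Igfbp2 the median of the other 9 was 0.81, 0.67, 1.14 and 1.49. No library of the 6 injured ones overlapped the 6 uninjured ones, always from above, for 6 of the genes at day 4, 4 at day 7, 5 at day 11 and 7 at day 15, where 56.9%, 44.2%, 46.2% and 45.2% of all genes did not overlap in either direction and 31%, 24.9%, 25.8% and 24.1% did so from above. With library size alone all 10 were called higher at each day.

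Both ligands were far above uninjured muscle throughout, and their courses differed. Igf1, the ligand through which growth hormone acts on many tissues and which muscle also makes locally, had a median of 16.9 CPM in uninjured muscle (7.62 to 35.9 over 6 libraries), 98.9 CPM at day 4 (62.1 to 112), 158 CPM at day 7 (106 to 316), 308 CPM at day 11 (101 to 484) and 283 CPM at day 15 (99.0 to 400.4). Every injured library lay above every uninjured one, and the spread among injured libraries was widest at day 11. The log2 fold change against uninjured muscle was 2.52 ± 0.33 (SE) at day 4, 3.51 ± 0.34 at day 7, 4.22 ± 0.36 at day 11 and 3.92 ± 0.35 at day 15, with edgeR adjusted p of 2.28e-07 or less. In bulk tissue, more cells of a type and more RNA per cell cannot be told apart, for this gene and for those that follow. Igf1 was also higher at day 7 than at day 4, by 0.99 ± 0.31 (edgeR adjusted p = 0.017), and at day 15 than at day 4, by 1.40 ± 0.32 (edgeR adjusted p = 0.000726). The first of these 2 calls is lost without male day 4 replicate 1 (edgeR adjusted p = 0.0634) or without female day 4 replicate 1 (edgeR adjusted p = 0.0523).

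Igf2, the imprinted ligand best known for fetal growth and for its expression in differentiating myoblasts, had its largest mean at day 7. Its median was 57.7 CPM in uninjured muscle (37.3 to 65.1), 498 CPM at day 4 (451 to 762), 780.3 CPM at day 7 (405 to 1503), 669 CPM at day 11 (214 to 1015) and 419 CPM at day 15 (225 to 779). The lowest injured library, at day 11, was above the highest uninjured one, so the groups did not overlap at any day. The log2 fold change was 3.36 ± 0.35 at day 4, 3.93 ± 0.36 at day 7, 3.55 ± 0.35 at day 11 and 2.93 ± 0.34 at day 15, with edgeR adjusted p of 6.56e-08 or less. No contrast between days was called for Igf2: day 7 against day 4 gave 0.57 ± 0.32 (edgeR adjusted p = 0.157), and day 15 against day 11 gave -0.62 ± 0.32 (edgeR adjusted p = 0.291).

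**Figure D1:**
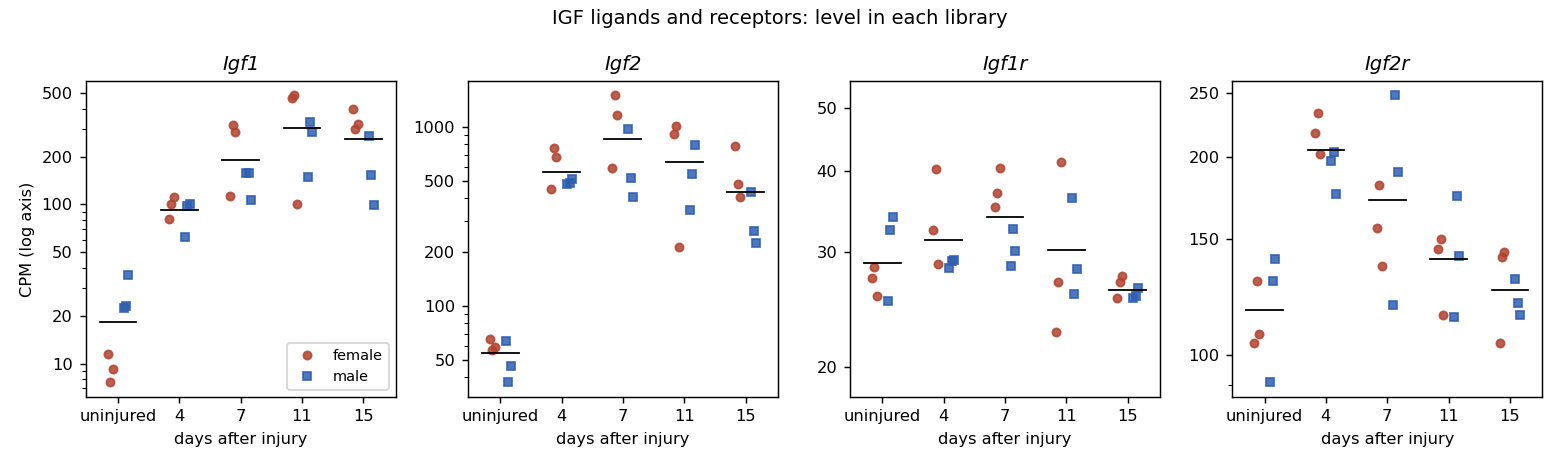
Level of the 2 ligands and the 2 receptors in each of the 30 libraries, in CPM on a log axis, from uninjured muscle to day 15. Circles are female and squares male libraries, and bars are means over 6 libraries. Igf1 and Igf2 in injured muscle lie above every uninjured library, Igf1r stays between 22.7 and 41.3 CPM, and Igf2r has its highest mean at day 4.

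The receptors moved little beside their ligands. Igf1r, the signalling receptor, had a median of 27.9 CPM in uninjured muscle (25.3 to 34.0), 29.2 CPM at day 4 (28.3 to 40.3), 33.9 CPM at day 7 (28.6 to 40.4), 27.7 CPM at day 11 (22.7 to 41.3) and 26.1 CPM at day 15 (25.5 to 27.6). Injured and uninjured libraries overlapped at every day, and the 6 day 15 libraries lay closest together. Its log2 fold change was 0.12 ± 0.13, 0.23 ± 0.13, 0.07 ± 0.13 and -0.13 ± 0.13 at days 4, 7, 11 and 15, and the lowest edgeR adjusted p was 0.117. Relative to library size alone, without TMM factors, Igf1r was called higher at each day, in step with the median gene.

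Igf2r, the receptor that clears IGF-2, was higher early. Its median was 119 CPM in uninjured muscle (90.9 to 139.7), 202 CPM at day 4 (176 to 233), 168 CPM at day 7 (119 to 248), 143 CPM at day 11 (114 to 174) and 125 CPM at day 15 (104 to 143). Every day 4 library lay above every uninjured library, while at the later days the groups overlapped. It rose by 0.81 ± 0.16 on the log2 scale at day 4 (edgeR adjusted p = 9.33e-05) and 0.55 ± 0.16 at day 7 (edgeR adjusted p = 0.00403). At days 11 and 15 the difference was 0.26 ± 0.16 and 0.10 ± 0.16 and was not called with TMM factors, and it was called with library size alone. Day 15 against day 4 gave -0.70 ± 0.16 (edgeR adjusted p = 0.000904). The antisense RNA Airn overlaps Igf2r in the GENCODE M21 annotation, and since the handling of strand is not given in the sources used here, reads of the 2 cannot be told apart. The same holds for Igf1 and Igf1os, for Igf2 and Igf2os, and for Igfbp7 with Polr2b and Gm34648. Igf2 is also overlapped on its own strand by the protein-coding gene Gm49394 and by Mir483, which strand handling would not separate.

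**Figure D2:**
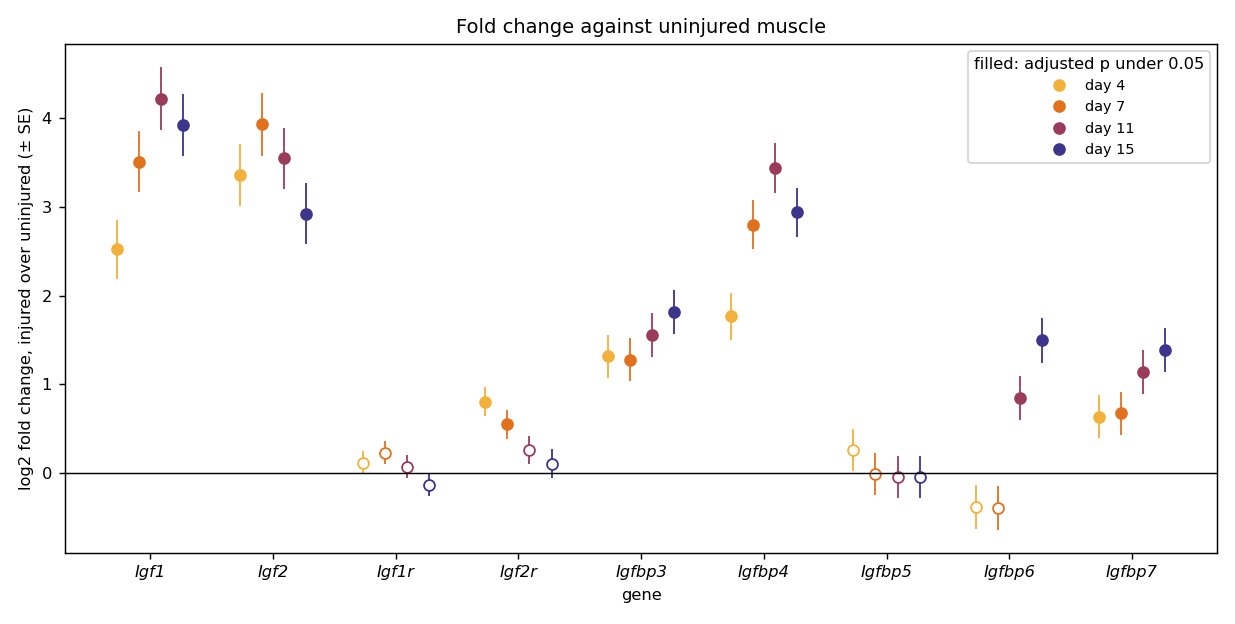
Log2 fold change, injured over uninjured muscle, for 9 genes at days 4, 7, 11 and 15, with SE from the edgeR fit. Filled points have an adjusted p under 0.05, and Igfbp2 is left out because its uninjured libraries held 6 counts in all. Igf1 and Igfbp4 have their largest value at day 11, Igf2 and Igf2r at days 7 and 4, and Igfbp6 and Igfbp7 at day 15.

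Ratios of counts within a library do not depend on the scaling between libraries. Igf1 to Igf1r had a mean log2 ratio of -0.87 ± 0.78 (SD, n = 6) in uninjured muscle, 1.54 ± 0.33 at day 4, 2.36 ± 0.55 at day 7, 3.14 ± 1.23 at day 11 and 3.14 ± 0.75 at day 15. Igf2 to Igf2r had -1.11 ± 0.51 in uninjured muscle, 1.43 ± 0.28 at day 4, 2.21 ± 0.98 at day 7, 2.01 ± 0.74 at day 11 and 1.67 ± 0.69 at day 15. In each of these 8 comparisons every injured library was above every uninjured one, with p = 0.00216 in an exact two-sided permutation test, the smallest it can give for 6 against 6, and 0.00325 after adjustment over 12 ratio tests. The differences from uninjured muscle were 2.41, 3.23, 4.01 and 4.01 for Igf1 to Igf1r at days 4, 7, 11 and 15, and 2.54, 3.32, 3.12 and 2.77 for Igf2 to Igf2r. They give unequal change within a library, not an absolute level.

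The balance of the ligands was followed in the same way. The mean log2 ratio of Igf2 to Igf1 counts was 1.77 ± 1.07 (SD, n = 6) in uninjured muscle, 2.60 ± 0.27 at day 4, 2.16 ± 0.33 at day 7, 1.09 ± 0.24 at day 11 and 0.77 ± 0.28 at day 15. Against uninjured muscle none of the 4 days was called, and the exact two-sided permutation test adjusted over the 12 ratio tests gave 0.143, 0.416, 0.172 and 0.0895. The uninjured libraries ranged from 0.37 to 2.89, and in them the ratio followed sex, as described below. The test pooled the sexes, so its spread includes their difference, and it does not show that the ratio was unchanged in either sex. Changes within each sex are given at the end, with the settings of processing. Day 4 libraries lay between 2.32 and 2.94 and day 15 libraries between 0.34 and 1.18, with no overlap, a description with no test because it was picked out after the values were seen.

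**Figure D3:**
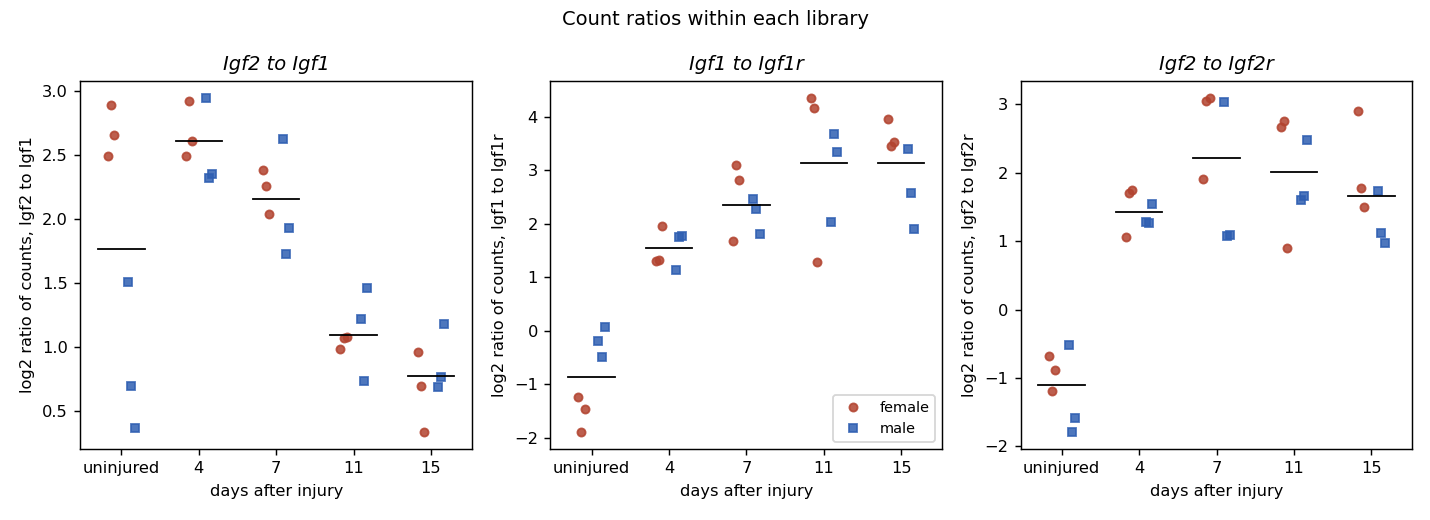
Log2 ratio of counts within each library for Igf2 to Igf1, Igf1 to Igf1r and Igf2 to Igf2r, from uninjured muscle to day 15. Circles are female and squares male libraries, and bars are means over 6 libraries. Igf2 to Igf1 is spread from 0.37 to 2.89 in uninjured muscle, apart by sex, and is lower at day 15 than at day 4 in every library.

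Among the binding proteins Igfbp2, Igfbp3, Igfbp4 and Igfbp7 were called higher at all 4 days, Igfbp6 at the last 2, and Igfbp5 at none, over both sexes. Igfbp2, a binding protein of fetal tissue and serum, was nearly absent before injury: 4 uninjured libraries had no count, and the others, both female, had 0.0879 and 0.167 CPM. Its median was 13.1 CPM at day 4 (7.37 to 22.4), 5.31 CPM at day 7 (3.28 to 10.8), 5.90 CPM at day 11 (2.35 to 19.9) and 6.28 CPM at day 15 (4.01 to 8.51). The ratio to the 6 counts over all uninjured libraries was 317.5-fold at day 4 (108.5 to 1541), 144-fold at day 7 (49.1 to 700), 178-fold at day 11 (60.8 to 866) and 144.5-fold at day 15 (49.1 to 703). The intervals are at 95% and cover counting error only. In males, with no uninjured count, Igfbp2 was at least 191.6-fold higher at day 4, 67.9-fold at day 7, 62.4-fold at day 11 and 67.2-fold at day 15, taking 6 counts summed over the uninjured males (3 read pairs) as the floor. Day 7 against day 4 gave -1.17 ± 0.38 (edgeR adjusted p = 0.0204) and day 15 against day 4 gave -1.09 ± 0.38 (edgeR adjusted p = 0.0201). Each of these 2 calls is lost when any of 3 single libraries is left out, male day 4 replicate 1 among them for both.

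Igfbp3, the main IGF carrier in serum, had a median of 32.0 CPM in uninjured muscle (18.8 to 49.3), 80.2 CPM at day 4 (49.5 to 118), 83.8 CPM at day 7 (41.4 to 107), 94.8 CPM at day 11 (62.5 to 149.8) and 109 CPM at day 15 (77.6 to 185). The groups did not overlap at days 4, 11 and 15, and at day 7 the lowest injured library fell inside the uninjured range. It rose by 1.32 ± 0.24 at day 4, 1.28 ± 0.24 at day 7, 1.56 ± 0.25 at day 11 and 1.81 ± 0.25 at day 15 (edgeR adjusted p of 5.39e-05 or less).

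Igfbp4, a binding protein that withholds IGFs until the protease PAPP-A cleaves it, had after Igfbp2 the largest fold among the binding proteins. Its median was 41.8 CPM in uninjured muscle (31.1 to 56.8), 143 CPM at day 4 (106 to 157), 253 CPM at day 7 (201 to 398), 512 CPM at day 11 (187 to 632) and 361 CPM at day 15 (168 to 482). All injured libraries were above all uninjured ones. The log2 fold change was 1.77 ± 0.27 at day 4, 2.80 ± 0.28 at day 7, 3.44 ± 0.28 at day 11 and 2.94 ± 0.28 at day 15 (edgeR adjusted p of 1.79e-06 or less). Igfbp4 rose further at day 7 against day 4, by 1.03 ± 0.26 (edgeR adjusted p = 0.0042), and stood 1.17 ± 0.26 above day 4 at day 15 (edgeR adjusted p = 0.000628).

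**Figure D4:**
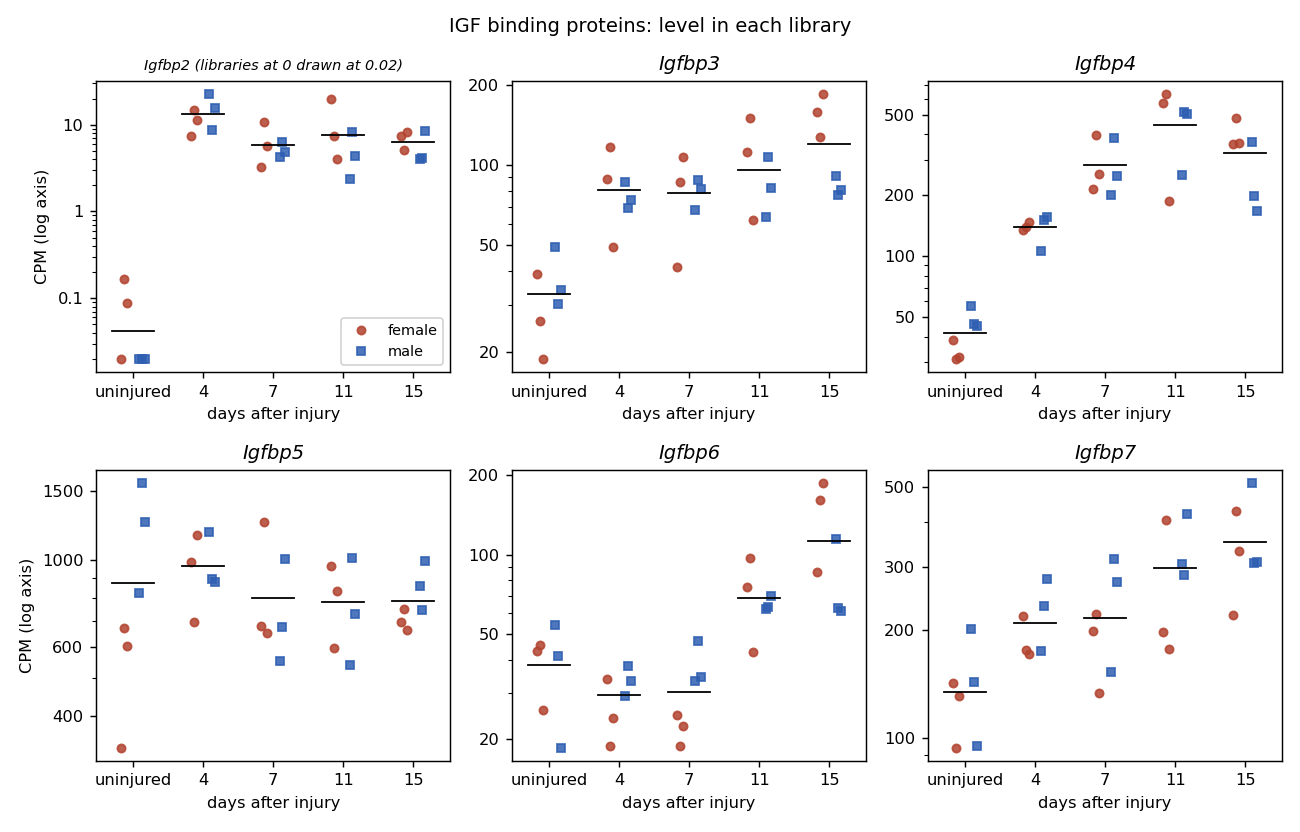
Level of the 6 binding protein genes in each of the 30 libraries, in CPM on a log axis, from uninjured muscle to day 15. Circles are female and squares male libraries, bars are means over 6 libraries, and Igfbp2 libraries with no count are drawn at 0.02. Igfbp4 injured libraries (106 to 632 CPM) lie above all uninjured ones, Igfbp5 overlaps at every day, and Igfbp6 lies above every uninjured library at day 15.

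Igfbp5, which binds matrix as well as IGFs and is made by differentiating muscle cells, was high in every group. Its median was 749.9 CPM in uninjured muscle (333 to 1573), 940.3 CPM at day 4 (695 to 1177), 677 CPM at day 7 (554 to 1253), 783 CPM at day 11 (539 to 1015) and 749 CPM at day 15 (665 to 994). The uninjured libraries spanned the injured ones entirely. Its log2 fold change was 0.26 ± 0.24 at day 4 (edgeR adjusted p = 0.335) and between -0.05 and -0.01 at the later days (edgeR adjusted p of 0.856 or more), with TMM factors. With library size alone it was 1.55, 1.15, 1.11 and 0.99 at days 4, 7, 11 and 15 and called at each.

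Igfbp6, a binding protein that prefers IGF-2, was higher only at the later days. Its median was 42.4 CPM in uninjured muscle (18.6 to 54.2), 31.3 CPM at day 4 (18.8 to 38.1), 29.0 CPM at day 7 (18.8 to 47.0), 66.6 CPM at day 11 (42.9 to 97.0) and 100.5 CPM at day 15 (61.3 to 187). Day 4 and day 7 libraries lay within the span of the uninjured ones, and at day 15 all 6 lay above it. Against uninjured muscle the log2 fold change was -0.38 ± 0.24 at day 4 (edgeR adjusted p = 0.16) and -0.39 ± 0.24 at day 7 (edgeR adjusted p = 0.151), then 0.84 ± 0.25 at day 11 (edgeR adjusted p = 0.00359) and 1.49 ± 0.25 at day 15 (edgeR adjusted p = 1.03e-05). The values at days 4 and 7 change sign and are called higher with library size alone, at 0.93 and 0.80, and without male uninjured replicate 3 they are called lower, at -0.54 (edgeR adjusted p = 0.0388) and -0.56 (edgeR adjusted p = 0.0354). Day 15 was above day 4 by 1.88 ± 0.25 (edgeR adjusted p = 2.11e-06). Day 11 was above day 7 by 1.24 ± 0.25 with an edgeR adjusted p of 0.0528, just past the threshold.

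Igfbp7, a low-affinity binding protein of blood vessel walls, had its largest values at day 15. Its median was 137 CPM in uninjured muscle (94.3 to 202), 198 CPM at day 4 (172 to 279), 210.0 CPM at day 7 (134 to 316), 296 CPM at day 11 (177 to 421) and 321 CPM at day 15 (220.1 to 514). The groups overlapped until day 15, when every injured library was above the uninjured ones. The log2 fold change was 0.63 ± 0.25 at day 4 (edgeR adjusted p = 0.0231), 0.67 ± 0.25 at day 7 (edgeR adjusted p = 0.0171), 1.14 ± 0.25 at day 11 (edgeR adjusted p = 0.000221) and 1.39 ± 0.25 at day 15 (edgeR adjusted p = 2.68e-05). The day 4 call is lost without any 1 of 4 libraries: male uninjured replicate 3 (edgeR adjusted p = 0.0704), female uninjured replicate 2 (0.0612), male day 4 replicate 3 (0.0767) or female day 4 replicate 1 (0.0647). The day 7 call is lost without male uninjured replicate 3 (edgeR adjusted p = 0.0559) or male day 7 replicate 2 (0.0535). Day 15 exceeded day 4 by 0.75 ± 0.25 (edgeR adjusted p = 0.0126), a call that is lost with library size alone (0.48, edgeR adjusted p = 0.0963) and without male day 4 replicate 1 (edgeR adjusted p = 0.0565).

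Between days, 3 of the 10 genes were called for day 7 against day 4, namely Igf1 and Igfbp4 higher and Igfbp2 lower, where 35.2% of all tested genes were called. Without male day 4 replicate 1 only 1 of the 3 is called. For day 15 against day 4, 6 were called, Igf1, Igfbp4, Igfbp6 and Igfbp7 higher and Igf2r and Igfbp2 lower, where 52.1% of all genes were called. For day 11 against day 7 edgeR called 0 of the 10 and 0.0584% of all genes, and 3 of the 10 had an unadjusted p under 0.05. DESeq2 called 1, Igfbp6, with 121 of all genes called. Without female day 11 replicate 3, edgeR also called Igfbp6, at 1.38 (adjusted p = 0.015). For day 15 against day 11 both tools called 0 of the 10, while edgeR called 4.24% of all genes and DESeq2 1264 genes. In edgeR 1 of the 10, Igfbp6, had an unadjusted p under 0.05. How many of all genes reach that level without adjustment was not counted. The contrasts that share a day or the uninjured libraries are not independent of each other.

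Day 11 rests in part on 1 library. Female day 11 replicate 3 was the lowest of the 6 in Igf1, Igf2, Igfbp3, Igfbp4, Igfbp6 and Igfbp7 and the highest in Igf1r. It also had the lowest summed macrophage markers, at 201.5 CPM against 411 to 2014 CPM in the other day 11 libraries, and the lowest summed fibroblast markers, at 3655 CPM. With all 6 libraries the mean was 303 ± 158 CPM for Igf1, 639 ± 322 CPM for Igf2 and 444 ± 181 CPM for Igfbp4 (SD, n = 6). Without it the means were 343 ± 138, 724 ± 274.5 and 496 ± 145 CPM (SD, n = 5). The same 7 genes were called at day 11 without this library, with log2 fold changes of 4.40 for Igf1, 3.72 for Igf2, 1.66 for Igfbp3, 3.59 for Igfbp4, 0.93 for Igfbp6 and 1.21 for Igfbp7.

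Markers of other cells moved over the same days, and their part in these values was not tested. Over all tested genes, 73.1%, 71.5%, 72.4% and 69% were called in either direction at days 4, 7, 11 and 15. Called higher were 40.1%, 41.6%, 42.7% and 39.7%, and marker counts near these shares say little about a cell type. All 8 macrophage markers were called higher at day 4 and at day 15 and 7 at days 7 and 11, and their summed level was 40.5 to 58.9 CPM in uninjured muscle, 2209 to 3292 CPM at day 4, 587 to 2115 CPM at day 7, 201.5 to 2014 CPM at day 11 and 254 to 1214 CPM at day 15. Of 8 fibroblast and fibro-adipogenic markers 5 were called higher and 1 lower at day 4, and all 8 higher at days 11 and 15, with sums of 326 to 702 CPM in uninjured muscle, 4835 to 7928 CPM at day 4, 3731 to 16661 CPM at day 7, 3655 to 20587 CPM at day 11 and 3996 to 11473 CPM at day 15. Beside Igfbp7, 8 endothelial markers summed to 580.4 to 1012 CPM in uninjured muscle and 437 to 635 CPM at day 4. Their sums were 540 to 975 CPM at day 7, 774 to 1037 CPM at day 11 and 1095 to 1507 CPM at day 15. Of these 8, 0, 0, 1 and 6 were called higher and 6, 1, 2 and 1 lower at the 4 days. At days 7 and 11 these sums overlapped those of uninjured muscle, and the Igfbp7 libraries overlapped the uninjured ones as well. Beside Igfbp6, 8 tendon markers summed to 97.9 to 325 CPM in uninjured muscle, 182 to 479.9 CPM at day 4, 302 to 859 CPM at day 7, 602 to 2031 CPM at day 11 and 484 to 1965 CPM at day 15. Of these 8, 5, 6, 7 and 8 were called higher at the 4 days, and 1 lower at day 4. Igfbp6 was called higher at days 11 and 15. Markers of regenerating fibres, 7 of 8 of which were called higher at each day, summed to 577 to 3521 CPM in uninjured muscle, 4299 to 6215 CPM at day 4, 2381 to 6172 CPM at day 7, 572 to 3322 CPM at day 11 and 706 to 1958 CPM at day 15. At days 11 and 15, 1 of the 8 was called lower, and the day 15 sums lay within the uninjured range. In uninjured muscle 1 of the 8 was at 0 in every library. At day 15 the counts called higher and lower were 4 and 2 of 8 satellite cell and myoblast markers, 3 and 1 of 8 pericyte and smooth muscle markers, 7 and 0 of 8 adipocyte markers, 4 and 0 of 7 tested neutrophil markers and 4 and 1 of 8 Schwann cell markers.

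Levels can be set against each other per length of transcript. In CPM per kb of exonic sequence (GENCODE M21, all isoforms merged, so genes with long alternative ends are understated), the order in uninjured muscle was Igfbp5 at 146 ± 75.9 (SD, n = 6), Igfbp7 at 111 ± 32.8, Igfbp6 at 34.3 ± 11.9, Igf2r at 12.6 ± 2.01, Igfbp3 at 10.5 ± 3.39, Igf2 at 9.54 ± 1.87, Igfbp4 at 9.42 ± 2.23, Igf1 at 1.84 ± 1.09, Igf1r at 1.72 ± 0.21 and Igfbp2 at 0.0230 ± 0.0380. The libraries of Igfbp5 and Igfbp7 overlapped, as did those of Igf2r, Igfbp3, Igf2 and Igfbp4, and those of Igf1 and Igf1r, while Igfbp6 and Igfbp2 stood apart from their neighbours in this order. At day 15 the order was Igfbp7 at 291 ± 85.6 CPM per kb, Igfbp5 at 131 ± 20.3, Igfbp6 at 101 ± 47.0, Igf2 at 75.3 ± 34.6, Igfbp4 at 73.1 ± 26.7, Igfbp3 at 38.3 ± 14.2, Igf1 at 25.9 ± 11.2, Igf2r at 13.5 ± 1.64, Igfbp2 at 3.37 ± 1.11 and Igf1r at 1.57 ± 0.05. There the neighbours from Igfbp5 down to Igf2r overlapped, while Igfbp7 lay above all others, and Igfbp2 and Igf1r each lay apart at the low end. In the means Igf1r was the lowest of the 10 per length at each day after injury, though at days 7 and 11 its libraries overlapped those of Igfbp2.

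Per length, the mean share of Igfbp5 among the binding protein transcripts was smaller and that of Igfbp4 larger after injury. Of the summed CPM per kb of the 6 binding proteins, Igfbp5 made up 45.0% ± 15.0 (SD, n = 6) in uninjured muscle, 37.8% ± 6.79 at day 4, 30.9% ± 5.94 at day 7, 23.7% ± 8.19 at day 11 and 21.3% ± 5.67 at day 15. The share of Igfbp4 was 3.07% ± 0.459 in uninjured muscle, 7.45% ± 1.13 at day 4, 14.9% ± 2.38 at day 7, 16.9% ± 4.66 at day 11 and 11.3% ± 3.29 at day 15. Every injured library was above every uninjured one in the Igfbp4 share, since the lowest injured value was 5.56% and the highest uninjured one 3.72%. Igfbp7 held 36.9% ± 10.6 in uninjured muscle and 40.6% to 45.3% in the means after injury, within the spread of the uninjured libraries. Igfbp6 had a mean share of 6.19% at day 4 and 15.4% at day 15, against 11.5% in uninjured muscle. These shares were not tested, and a smaller share of Igfbp5 does not show that its level fell.

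**Figure D5:**
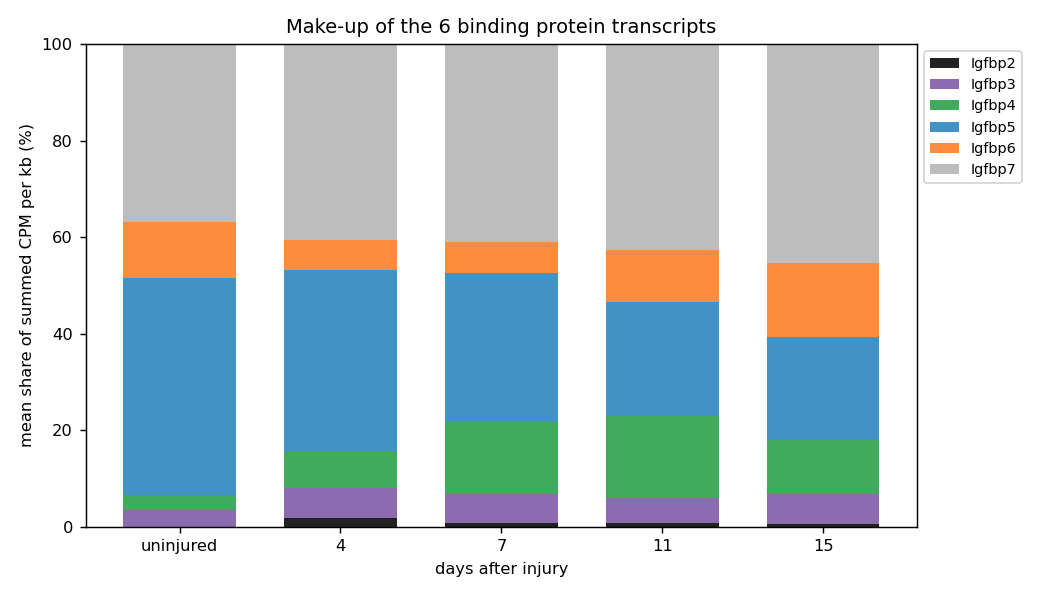
Mean share of each binding protein gene in the summed CPM per kb of the 6, as stacked bars from uninjured muscle to day 15, over 6 libraries each. Igfbp5 makes up 45.0% in uninjured muscle and 21.3% at day 15, and Igfbp4 reaches 16.9% at day 11. Igfbp2 is the thin band at the bottom.

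In female against male muscle, edgeR called none of the 10 genes in uninjured muscle, where 0.636% of all genes were called. At an unadjusted p under 0.05 there were 2, Igf1 and Igfbp5, and all genes were not counted at that level. DESeq2 called 1, Igfbp5, with 323 of all genes called. Igf1 was at 11.6, 7.62 and 9.27 CPM in the 3 uninjured female libraries, against 22.2, 23.1 and 35.9 CPM in the 3 male ones. The sexes did not overlap, and the log2 difference was -1.51 ± 0.46 (edgeR adjusted p = 0.14). A fit with these 6 libraries alone called it (-1.55, edgeR adjusted p = 0.0191), with 254 of all genes called. Igfbp5 was at 333, 673 and 603 CPM in uninjured females, against 827, 1573 and 1252 CPM in uninjured males, also without overlap (-1.18 ± 0.34, edgeR adjusted p = 0.117, and 0.0278 with DESeq2). The log2 ratio of Igf2 to Igf1 differed accordingly, and all 3 uninjured females were above the 3 males in it. This pattern of the ratio was seen in the values and not tested.

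The change after injury was set between the sexes by an interaction term, and none of the 10 genes was called at any day by edgeR, where 0.0467%, 0.123%, 0.0584% and 0.21% of all genes were called at days 4, 7, 11 and 15. At an unadjusted p under 0.05 there were 3, 2, 2 and 3 of the 10, Igfbp2 among them at day 4, and all genes were not counted at that level. DESeq2 called 0 of the 10 at days 4, 7 and 11, with 34, 56 and 80 of all genes called. At day 15 DESeq2 called 1, Igf1 (2.41, adjusted p = 0.0242), with 201 of all genes called. Igf1 had the largest of these differences at each day apart from Igfbp2, whose uninjured libraries are at or under the floor and for which no sex difference in fold is given. Its log2 fold change at day 15 was 5.16 ± 0.53 in females and 2.69 ± 0.47 in males, a difference of 2.47 ± 0.64 (edgeR adjusted p = 0.10). At day 15 itself the females held 400.4, 296 and 319.5 CPM of Igf1, against 269, 154 and 99.0 CPM in the males. Igfbp5 had log2 fold changes of 0.82 ± 0.34 in females and -0.31 ± 0.33 in males at day 4, a difference of 1.13 ± 0.47 that was not called (edgeR adjusted p = 0.586). Within females the Igfbp5 value was called (edgeR adjusted p = 0.0358), where 64.8% of all genes were called. Igfbp6 was called lower within females at day 7 (-0.80 ± 0.35, edgeR adjusted p = 0.0474), against 0.0093 ± 0.35 in males, and the difference of -0.81 ± 0.49 was not called (edgeR adjusted p = 0.59). Within females Igf1r was called higher at day 7 (0.46 ± 0.18, edgeR adjusted p = 0.0305, where 64.3% of all genes were called), against -0.0069 ± 0.18 in males, a difference of 0.47 ± 0.26 that was not called (edgeR adjusted p = 0.555). The direction for Igfbp5 within males turns with library size alone, to 0.86 at day 4. The day 11 sex difference counts female day 11 replicate 3 as female, the library that did not show the Xist level of the others. Its Igf1 was at 101 CPM, against 465 and 484 CPM in the other day 11 females. With each library left out in turn, this 1 included, edgeR called 0 of the 10 for the sex difference at day 11.

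Proteins that act on IGFs outside cells were next. Of 10 such genes 8 were tested, and 4, 5, 5 and 6 were called higher at days 4, 7, 11 and 15 and 1 lower at each day, with a median log2 fold change of 0.86, 0.69, 0.86 and 1.42. The 5 to 7 of 8 called compare with 69% to 73.1% of all genes. Igfbp1, the insulin-regulated binding protein of liver, had no count in any library. Adam12, a metalloprotease of regenerating muscle that can cleave Igfbp3 and Igfbp5, rose by 7.26 ± 0.61 at day 4, 6.89 ± 0.60 at day 7, 6.83 ± 0.60 at day 11 and 5.44 ± 0.59 at day 15. It was at 0.341 ± 0.235 CPM in uninjured muscle (SD, n = 6), and the ratio of counts was 154-fold at day 4, with a 95% counting interval of 103 to 240. Those uninjured libraries held 48 Adam12 counts in all. Pappa, which encodes the protease that cleaves Igfbp4, rose by 2.67 ± 0.53, 2.65 ± 0.53, 2.33 ± 0.54 and 2.61 ± 0.54, and averaged 1.58 ± 0.53 CPM at day 4 against 0.248 ± 0.181 CPM in uninjured muscle. At that uninjured level Pappa passed the filter only through injured groups, where it is high. Its fitted folds rest on few uninjured counts, and the counts called higher include it. Its inhibitor Stc2 was not called at any day with TMM factors (0.40, -0.22, -0.36 and -0.50), and was called higher at days 4, 7 and 11 with library size alone. Igfals, the acid-labile subunit that joins Igfbp3 and IGFs in serum, fell by 3.39 at day 4, 2.62 at day 7, 3.21 at day 11 and 2.51 at day 15, to 0.710 ± 0.315 CPM at day 4 against 7.34 ± 1.21 CPM in uninjured muscle.

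Of 9 genes of the Igf2 locus and of Igf2 mRNA binding, 7 were tested, with 4 called higher and 2 lower at day 4 and 5 higher and 2 lower at each later day. The median log2 fold change was 1.58, 1.95, 1.12 and 0.75 at days 4, 7, 11 and 15, and 69% to 73.1% of all genes were called in either direction. Without Hmga2, which has too few uninjured counts to pass the filter except through injured groups, 3 of the other 6 were called higher at day 4 and 4 later, 2 lower at each day, and the median was 0.72, 1.33, 0.87 and 0.59. Igf2os, with 26 uninjured counts, also passed the filter only through injured groups and is still among these 6, so these counts and medians are not free of that selection. H19, the imprinted non-coding RNA next to Igf2, rose by 1.58 ± 0.30 at day 4, 1.95 ± 0.30 at day 7, 1.12 ± 0.30 at day 11 and 0.75 ± 0.29 at day 15 (edgeR adjusted p of 0.026 or less). It averaged 4202 ± 1480 CPM at day 7 against 1450 ± 1130 CPM in uninjured muscle, and its largest value fell on the same day as that of Igf2. Igf2bp2, an mRNA-binding protein that takes its name from Igf2 mRNA, rose by 2.52 ± 0.25, 1.95 ± 0.25, 1.54 ± 0.24 and 1.58 ± 0.25. Hmga2, a chromatin protein of embryonic and proliferating cells, had 4 counts over the uninjured libraries, and its ratio was 382-fold at day 4 (106 to 3160), 109.5-fold at day 7 (30.1 to 907), 30.8-fold at day 11 (8.25 to 257) and 19.99-fold at day 15 (5.13 to 169). Igf2os, the antisense RNA of Igf2, had 26 uninjured counts and ratios of 9.74-fold at day 4 (5.62 to 18.5) and 12.8-fold at day 7 (7.38 to 24.3), with strand unresolved as above.

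Receptor kinases and their adaptors were called in both directions. All 12 genes were tested, and 4 were called higher and 5 lower at day 4, 3 and 5 at day 7, 3 and 4 at day 11 and 3 and 3 at day 15, with medians of -0.47, -0.25, -0.21 and 0.03. The count at day 4, 9 of 12, is near the 73.1% of all genes called then. With library size alone these counts were 8 higher and 0 lower at day 4 and 9 and 0 at each later day, so the directions below are relative to TMM scaling. Grb10, an adaptor that restrains insulin and IGF-1 receptor signalling, rose by 2.04 ± 0.29, 1.03 ± 0.28, 0.67 ± 0.28 and 0.98 ± 0.28 at days 4, 7, 11 and 15, and was higher in every setting of scaling. Irs1, the insulin receptor substrate that muscle uses for growth signals, fell with TMM factors (-1.54, -0.98, -1.11 and -1.04), but had 0.12 and 0.02 at days 7 and 11 with library size alone. Irs2 fell by 1.21 at day 7 and 1.57 at day 11 and was at -0.52 and -0.17, not called, at days 4 and 15, where library size alone gave 0.79 and 0.85. Insr, the insulin receptor, fell with TMM factors (-1.29, -0.62, -0.53 and -0.72), while library size alone gave 0.0064, 0.51, 0.60 and 0.31. Grb14, another adaptor of the insulin receptor, fell by 1.75 at day 4 and was not called later, with 0.66, 0.67 and 1.10 at days 7, 11 and 15 under library size alone.

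Downstream, 27 genes of the PI3K, Akt, mTOR and FoxO route were tested, and 4, 3, 4 and 6 were called higher and 9, 14, 12 and 11 lower at days 4, 7, 11 and 15. That is 13 to 17 of 27 called, where 69% to 73.1% of all genes were. With library size alone 19 were higher at each day and 1, 4, 4 and 2 lower. Akt2, the Akt form of insulin-sensitive tissue, fell (-1.60, -2.10, -2.23 and -1.93), and with library size alone it kept its direction but lost the call at day 4. Foxo4, a transcription factor that Akt keeps out of the nucleus, fell (-2.29, -2.12, -2.38 and -2.11), to 60.3 ± 6.05 CPM at day 4 against 299 ± 70.4 CPM in uninjured muscle. Eif4ebp2, a repressor of cap-dependent translation under mTOR, was at -0.66 (not called) at day 4 and fell at the later days (-2.05, -2.44 and -1.73). In the growth hormone axis 8 of 10 genes were tested, with 1, 2, 1 and 1 called higher and 4 lower at each day. With library size alone these counts were 4 higher and 3 lower at days 4, 7 and 11, and 4 and 2 at day 15. The split between higher and lower is thus relative to TMM scaling. Ghr, the growth hormone receptor, fell (-2.41, -1.61, -1.75 and -2.05), and averaged 34.2 ± 6.18 CPM at day 4 against 182 ± 29.8 CPM in uninjured muscle, while Igf1 rose in the same libraries. Stat5b, the factor through which growth hormone induces Igf1 in liver, fell (-2.65, -1.86, -1.95 and -1.78), and Cish, a STAT5 target that damps cytokine receptors, fell as well (-3.00, -2.79, -2.51 and -1.82). Socs3, a damper of cytokine receptors, rose by 2.58 ± 0.33, 2.09 ± 0.32, 1.54 ± 0.32 and 3.23 ± 0.33. Every rise and fall named among the pathway genes had an edgeR adjusted p of 0.0333 or less with TMM factors, the highest being Grb10 at day 11.

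The genes whose course was most like that of each gene were sought among 10834 genes with a mean of at least 5 CPM, by the root mean square difference of the centred log2 means of the 10 groups. Closest to Igf1 were Gli2 (0.26), Hmgn3 (0.34) and Thbs3 (0.39), against a median of 1.64 over all genes. Closest to Igf2 were Csrp2 (0.21), Tyro3 (0.22) and Trerf1 (0.25), against 1.497. Igfbp4 was closest to Nfatc4 (0.15), Mmp2 (0.16) and Cpxm1 (0.18), against 1.32, and Igfbp7 to Col4a1 (0.20), Lamc1 (0.20) and Id3 (0.20), against 0.72. For Igfbp6 they were Tppp3 (0.13), Dcn (0.15) and Tmod2 (0.28), and for Igfbp2 Cthrc1 (0.50), Clec7a (0.56) and Fbxl13 (0.60), against medians of 0.94 and 2.75. Igfbp3 was nearest to Septin8, Pde5a and Kctd17 (0.13 to 0.14, against 0.85). The nearest genes were Atn1, Zfand1 and Ddhd2 for Igf1r, Atxn7l3, Spire1 and Vps33b for Igf2r, and Dstyk, Acvr2a and Slc35a3 for Igfbp5. These are descriptions over 10 means that share libraries, and carry no test.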

How the data were processed

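The authors deposited 1 table per library of whole-number read counts per gene symbol, and STAR, edgeR and the mouse build mm39 are named in the submitters' processing notes, without versions. Per the labels' protocols a commercial laboratory extracted total RNA and made the libraries. Between 65.5% and 77.5% of counts from 1 to 20 are even, as when both reads of a pair are counted, so a floor of 6 counts stands for 3 read pairs. The lowest chi-square per degree of freedom between replicates was 16.2, so no library was counted as a duplicate.

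From the deposited counts, edgeR 4.0.16 (R 4.3.3) fitted the 10 groups of sex and time with TMM factors after its default filter, which removed 9128 of 26264 genes. Day effects average the sexes. P-values were adjusted by Benjamini-Hochberg over the 17136 genes tested, and SE is the log2 fold change over the square root of F. The fit was also run on simulated counts in which few genes changed, which does not check the scaling between uninjured and injured muscle. DESeq2 1.42.0 was an alternative, with other scalings, filters, halved counts, a replicate block and each library left out. Scaling of the pathway genes was added after seeing the data. Ratios used log2 counts with a pseudocount of 1. Intervals and floors cover counting error only.

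All 10 members are reported. From each pathway list the 3 called genes with the largest change and a mean of at least 1 CPM are named, and Pappa, Stc2, Irs1, Irs2, Insr, Ghr and H19 whatever their value, of which Pappa and Irs2 also met the size rule. The members and lists were chosen with earlier results of these data known.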

Additional observations from a re-analysis of the deposited data

Results flagged for a closer look

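Igf1r at day 4 had 1 library far from the others: female day 4 replicate 2 was at 40.25 CPM, and the other 5 lay between 28.35 and 32.45 CPM. The same library had the highest Igf2, Igf2r and Igfbp3 of day 4 and the lowest summed mature fast fibre markers, at 7010 CPM, and their part in its values was not tested. Igfbp2 at day 11 had its highest library, female day 11 replicate 1, at 19.86 CPM, with the others between 2.355 and 8.127 CPM. These were 2 of 50 groups of 6 libraries examined by Dixon's gap rule, which chance meets in about 5% of groups.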

How the results depend on the processing

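Uninjured Igfbp2 counts are at the floor, so no fitted fold is given for this gene. Among the settings run, library size alone turned directions of single genes that were called in either fit. Directions of genes called in neither were not compared. With library size alone, Igfbp6 was at 0.926 at day 4 and 0.799 at day 7, Igfbp5 at 1.15, 1.11 and 0.993 at days 7, 11 and 15, and Igf1r at 0.903 at day 15. Within males it gave Igf1r 1.09, 0.979, 0.907 and 0.629 at the 4 days, Igfbp5 0.865 and Igfbp6 1.01 at day 4. Within females it gave Igfbp6 0.846 and 0.560 at days 4 and 7 and Igf1r 1.18 at day 15. The pathway genes, a check chosen after seeing the data, turned to 0.79 and 0.846 for Irs2 at days 4 and 15, 0.00636, 0.511, 0.605 and 0.314 for Insr at the 4 days, 0.124 and 0.024 for Irs1, 0.942 and 0.78 for Stc2 and 0.657 and 0.667 for Grb14 at days 7 and 11. In this setting the median gene was also higher at each day, as given above. The cause of these shifts, and of the differences below, was not tested.

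Of the 10 genes, day 11 against day 7 called 1 without a low-count filter, with CPM above 1, with halved counts and with DESeq2. Female against male and the day 15 sex difference each called 1 with the compared groups only and with DESeq2. Over all genes, day 11 against day 7 called 5 with library size alone, 1 with the compared groups only and 121 with DESeq2. Day 15 against day 11 called 412 with the compared groups only and 1264 with DESeq2, and female against male 254 and 323. The sex difference at day 4 called 5 with RLE scaling, 5 with library size alone, 4 with no filter, 1 with the compared groups and 34 with DESeq2. At day 7 it called 9 with halved counts, 0 with the compared groups, where the fit has fewer libraries, and 56 with DESeq2. At day 11 it called 23 with library size alone, 16 with CPM above 1, 2 with the compared groups and 80 with DESeq2. At day 15 it called 22 with halved counts, 278 with the compared groups and 201 with DESeq2.

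In males only, the Igf2 to Igf1 difference was 1.677, 1.233, 0.2817 and 0.021 at the 4 days, and in females only -0.006162, -0.4537, -1.632 and -2.011. For Igf1 to Igf1r at days 4, 7 and 15 males gave 1.752, 2.387 and 2.828, and females 3.062, 4.063 and 5.184.

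Leaving out 1 library, the 10 genes gave 6 to 7 calls at days 4 and 7, 7 at days 11 and 15, 1 to 3 for day 7 against day 4, 0 to 1 for day 11 against day 7, 0 for day 15 against day 11, 4 to 7 for day 15 against day 4, 0 for female against male, and 0, 0 to 1, 0 and 0 for the sex difference at the 4 days. All genes gave 12109 to 12923, 11638 to 12663, 11910 to 12602 and 11262 to 12150 at the 4 days, then 3976 to 6778, 3 to 31, 301 to 1506 and 7875 to 9468 between days, 32 to 168 for female against male, and 0 to 11, 2 to 204, 5 to 23 and 8 to 51 for the sex difference. Igf2 to Igf1 ranged over 0.556 to 1.06, 0.11 to 0.614, -0.955 to -0.451 and -1.27 to -0.77, Igf1 to Igf1r over 2.20 to 2.60, 3.02 to 3.41, 3.77 to 4.38 and 3.80 to 4.25, and Igf2 to Igf2r over 2.40 to 2.66, 3.14 to 3.55, 2.97 to 3.34 and 2.53 to 2.91. Igf2 to Igf1 was called at day 15 without male uninjured replicate 2 or 3 and at day 4 without female uninjured replicate 2.

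Same-numbered libraries did not deviate together (mean correlation 0.0125, against -0.0063 for different numbers), and 12 of 30 were closest to their own number. With the replicate block Igfbp6 at day 11 against day 7 was 1.23 (edgeR adjusted p = 0.0561), and 207 of 210 fold changes stayed called or stayed not called. Direction was compared only for those called in either fit.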
